A study of Mus musculus with 15 samples.

Results

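The 40 genes described here encode collagens and other components of the extracellular matrix, together with the enzymes that crosslink the matrix and the proteases and inhibitors that remodel it. They were chosen by symbol from a fixed list of such genes, and they were 40 of the 55450 gene IDs counted in the liver. All 40 passed the filter on low counts, which left 15808 genes to be tested. They comprised 7 fibrillar collagens, 7 basement membrane collagens and laminins, 5 type VI and fibril-associated collagens, 4 small leucine-rich and large proteoglycans, 10 glycoproteins and elastic fibre genes, 3 crosslinking enzymes, and 4 proteases and inhibitors.

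Poly(A) RNA was sequenced from whole liver of 15 female C57BL/6 mice in 3 groups of 5. The mice labelled A1 to A5 (Adult) started the experiment at 6 months of age, and those labelled O1 to O5 (Old) at 22 months. Both groups received the corn oil vehicle by gavage. The PDX mice (P1 to P5) were also 22 months old and received protectin DX (PDX), a lipid mediator derived from an omega-3 fatty acid, at 30 ng per g of body weight in daily gavage. All 3 groups were kept on chow diet, and the labels name no transgene or deletion. Old against Adult addresses age, and PDX against Old addresses the compound in aged mice. PDX against Adult shares its mice with both.

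In the liver, the interstitial matrix is built mainly by hepatic stellate cells, portal fibroblasts and the myofibroblasts that arise from them, whereas hepatocytes secrete several soluble matrix glycoproteins into the blood. Fibrillar collagens assemble into the fibres that accumulate in fibrosis. Type IV collagen and laminins form basement membranes, and collagens XV and XVIII lie at the border between these membranes and the tissue around them. Small proteoglycans coat collagen fibrils and govern their spacing, lysyl oxidases join the fibrils covalently, and matrix metalloproteinases (MMPs) and their tissue inhibitors (TIMPs) set the rate of breakdown.

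Levels are given as CPM, the read pairs of a gene scaled to a common library size after TMM scaling, a normalization that corrects for a few genes taking a large share of a library. Total counts lay between 22424383 and 36070835 read pairs in each library. The mice were not equally alike within groups. Correlations of log2 CPM between mice of a group ranged from 0.836 to 0.988. O2 and O5 stood apart in cell type markers. The summed CPM of 8 hepatocyte markers was 77930 in O2 and 52930 in O5, against 131547 to 203274 in the other Old mice, 132167 to 143730 in Adult mice and 110271 to 164488 in PDX mice. The summed CPM of 6 Kupffer cell markers was 2633 in O2 and 247 to 806 in the other Old mice, and that of 6 T cell markers was 163 in O2 and 2.16 to 5.05 in the other Old mice. Main results are therefore also given without both mice. Every marker of the 12 cell type lists had counts in the data, hepatocyte markers included.

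To compare levels between genes, CPM was divided by the length of all annotated exons of the gene in kb. The most abundant of the 40 transcripts in the Adult liver encoded glycoproteins that hepatocytes release. Vitronectin (Vtn), an adhesive plasma protein, was at 1318 ± 53.1 CPM per kb (SD, n = 5), and fibronectin (Fn1), which links cells to collagen, was at 137 CPM per kb. The basement membrane collagen Col18a1, the precursor of endostatin, stood between them at 226 CPM per kb. Ecm1, a secreted glycoprotein that binds other matrix proteins, came next at 97.1 CPM per kb. The collagens of scar fibres were far lower in Adult mice, with 5.02 CPM per kb for Col3a1, 2.06 for Col1a2 and 1.76 for Col1a1. The least abundant were Lox, a lysyl oxidase, at 0.0999 CPM per kb and Vcan, the large proteoglycan versican, at 0.00468 CPM per kb. Exon length counts every annotated isoform, retained introns included, so the level per kb of a gene with many partial isoforms, such as Col1a2, is a low estimate.

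**Figure D1:**
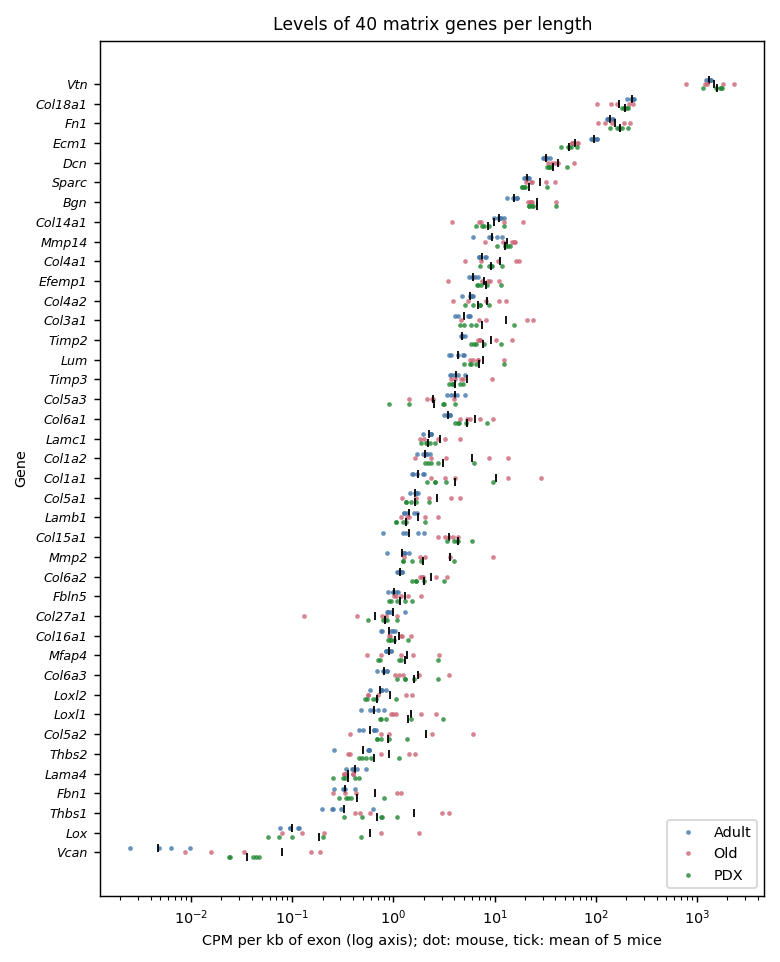
Levels of the 40 matrix genes in CPM per kb of exon on a log axis, with 1 dot per mouse, coloured by group, and a tick at the mean of each group. Vtn lies at the top and Vcan at the bottom in all groups, the dots of Col1a1 spread widely among the Old mice, and the Vcan value of A5, which is 0, cannot be drawn on this axis.

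The share of all counts that fell in the 40 genes was 0.673% to 0.704% in Adult mice, 0.717% to 0.824% in Old mice and 0.755% to 0.792% in PDX mice. Vtn, Fn1 and Col18a1 made up most of it. Without these 3 genes the share was 0.109% to 0.122% in Adult, 0.101% to 0.291% in Old and 0.105% to 0.206% in PDX mice, so that the groups overlapped.

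Between Old and Adult, 8 of the 40 genes were higher and 1 was lower at an adjusted p under 0.05 in the quasi-likelihood test of edgeR. This was 22.5% of the members, beside 6.78% of all genes tested (4.71% higher and 2.07% lower). Of the 8, Vcan met the low-count filter through aged mice alone. Mean levels were higher in Old mice for 34 of the 40. The median log2 fold change was 0.62, beside 0.07 over all genes tested. All Old mice lay above all Adult mice for 9 members and below them for 1, in total 10 members, and 8.13% of all genes separated the groups in this way (3.65% higher and 4.48% lower). At an unadjusted p under 0.05 there were 23 members, beside 27.7% of all genes. In bulk liver, a change in the number of matrix-producing cells cannot be told apart from a change in RNA per cell. Without O2 and O5, 3 of the 40 passed the threshold (Col15a1, Col6a2 and Ecm1), a share close to the 7.12% of all genes that passed in that fit, and the median was 0.24, beside 0.01 over all genes. That count also depended on P3, whose spread enters the shared estimate. With P3 left out as well, a choice made after the values were seen, 10 of the 40 passed, beside 6.93% of all genes. They were Col1a1, Col15a1, Col6a1, Col6a2, Col6a3, Lum, Bgn, Efemp1 and Timp2, all higher, and Ecm1, lower. The median was then 0.23. With 1 mouse left out, the number past the threshold ranged from 2 (without A2, A4 or A5, where 0.970% to 1.28% of all genes passed) to 18 (without O1, 9.85% of all genes). It was 5 without O2 (4.32% of all genes) and 11 without O5 (13.2% of all genes).

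**Figure D2:**
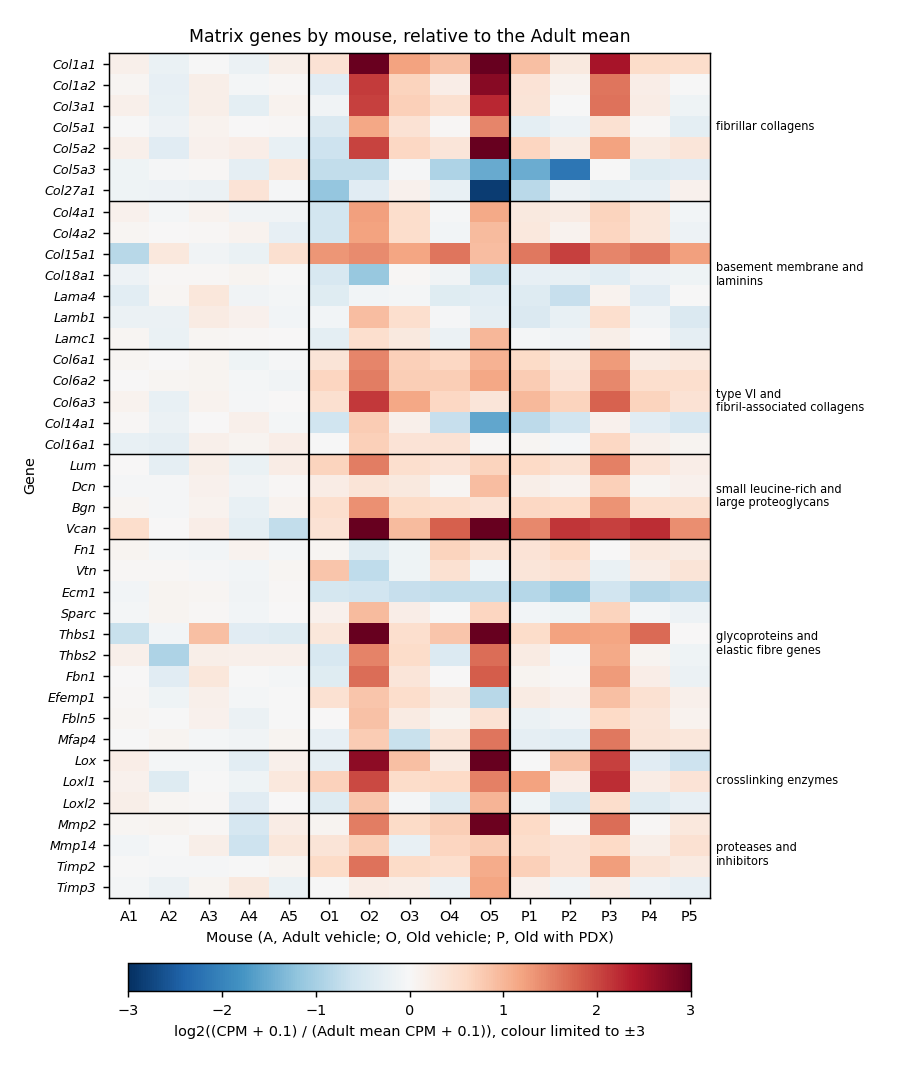
Colour map of log2 CPM relative to the Adult mean (0.1 CPM added to both) for the 40 genes in rows, grouped by class, and the 15 mice in columns, with colour limited to 3 in either direction. Columns O2, O5 and P3 are red over most rows, whereas the Col15a1 row is red and the Ecm1 row blue in every Old and PDX mouse.

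Of the 7 fibrillar collagens, 5 had higher means in Old than in Adult mice and 1 passed the test, with a class median of 1.37 on the log2 scale. Col1a1 (chr11:94936224-94953042, GRCm38) encodes the main chain of type I collagen, the principal fibre of scar tissue. Its level was 12.9, 10.0, 11.4, 10.3 and 13.1 CPM in A1 to A5, 15.5, 90.1, 26.6, 21.3 and 188 CPM in O1 to O5 and 21.6, 14.1, 64.0, 17.0 and 16.8 CPM in P1 to P5. O5, O2 and P3 were the highest of the 15 mice, and the lowest Old mouse was still above the highest Adult mouse. Col1a1 was higher in Old than in Adult by 2.56 ± 0.64 on the log2 scale (SE, n = 5 per group, edgeR adjusted p = 0.0310). Without O2 and O5 the difference was 0.88 ± 0.40 and did not pass (edgeR adjusted p = 0.196).

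Col1a2 (chr6:4504814-4541544), the partner chain of type I collagen, was highest in the same mice. Its level was 26.8, 21.4, 29.0, 24.5 and 26.1 CPM in A1 to A5, 20.3, 109, 41.0, 29.2 and 169.7 CPM in O1 to O5 and 34.3, 27.6, 77.4, 29.4 and 25.5 CPM in P1 to P5. O1 lay below every Adult mouse, and the Old and Adult groups overlapped. The log2 fold change between Old and Adult was 1.53 ± 0.50 (edgeR adjusted p = 0.0685), and 0.25 ± 0.32 without O2 and O5.

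Col3a1 (chr1:45311538-45349706), which forms the reticular fibres of the liver, was at 54.9, 42.3, 55.9, 40.1 and 53.3 CPM in A1 to A5, 45.7, 204, 81.6, 68.6 and 237 CPM in O1 to O5 and 64.5, 49.1, 154, 57.5 and 44.8 CPM in P1 to P5. O1 lay within the Adult range, and O2, O5 and P3 were the 3 highest. The Old against Adult log2 fold change was 1.37 ± 0.44 (edgeR adjusted p = 0.0651), and 0.42 ± 0.34 without O2 and O5. An unnamed gene model on the same strand, Gm47302, overlaps an exon of Col3a1, and read pairs in that stretch may not have been assigned to either gene.

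Col5a2 and Col5a1 encode chains of type V collagen, which initiates type I fibrils. Col5a2 was at 6.21, 4.37, 6.16, 6.40 and 4.76 CPM in A1 to A5, 3.61, 23.0, 8.63, 7.17 and 58.8 CPM in O1 to O5 and 8.72, 6.66, 13.0, 6.65 and 7.19 CPM in P1 to P5. O5 alone was at more than the sum of the other Old mice, and O1 was below every Adult mouse. The log2 fold change was 1.86 ± 0.57 (edgeR adjusted p = 0.0585), and 0.23 without O2 and O5. Col5a1 was at 13.9, 12.5, 15.0, 14.2 and 14.4 CPM in A1 to A5, 10.4, 31.3, 19.0, 14.3 and 39.1 CPM in O1 to O5 and 11.4, 12.6, 19.2, 14.3 and 11.4 CPM in P1 to P5, with a log2 fold change of 0.71 ± 0.29 (edgeR adjusted p = 0.127), and 0.07 without O2 and O5. Not every fibrillar collagen gene leaned upward in O2 and O5. Col5a3 was at 0.60 times the Adult mean in O2 and 0.35 times in O5, and Col27a1 at 0.79 and 0.13 times. Neither passed the test in any comparison.

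**Figure D3:**
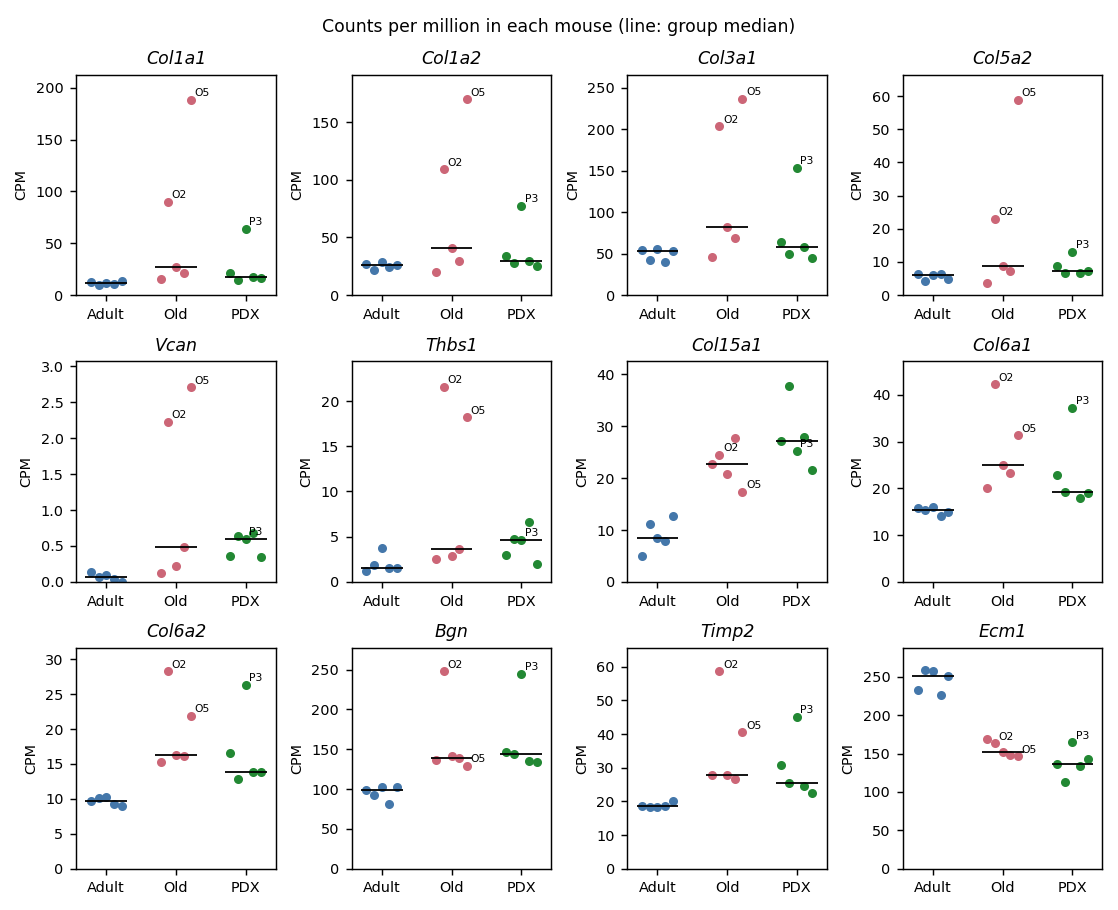
Level in CPM of 12 matrix genes in each mouse, grouped as Adult, Old and PDX, on axes that start at 0, with a line at the group median and the mice O2, O5 and P3 labelled. In Col1a1, Col3a1 and Col5a2 those mice stand above the rest of their groups, whereas in Col15a1 and Ecm1 all Old and PDX mice are shifted away from the Adult mice.

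Of the 7 basement membrane genes 1 rose, Col15a1 (chr4:47208161-47313167), which encodes the core of a collagen-proteoglycan that anchors vessels to the tissue around them. Its level was 5.06, 11.2, 8.44, 7.94 and 12.6 CPM in A1 to A5, 22.8, 24.5, 20.7, 27.8 and 17.4 CPM in O1 to O5 and 27.1, 37.7, 25.2, 28.0 and 21.5 CPM in P1 to P5. Every Old and every PDX mouse was above every Adult mouse, and O5, the highest mouse for type I collagen, was the lowest Old mouse here. The difference between Old and Adult was 1.32 ± 0.22 on the log2 scale (edgeR adjusted p = 0.00800) and 1.40 ± 0.24 without O2 and O5 (edgeR adjusted p = 0.00501). It passed the threshold under each of the 25 alternatives tried. Col15a1 also overlaps an antisense gene, and counting by strand kept the reads of these apart.

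The genes of type IV collagen and of the laminins did not pass in the test of Old against Adult. Col4a1 and Col4a2, which are transcribed from a shared promoter region in opposite directions, had log2 fold changes of 0.61 (edgeR adjusted p = 0.152) and 0.55 (edgeR adjusted p = 0.183). In O2 they were at 2.35 and 2.30 times the Adult mean. In O1 they were at 0.69 times, and without O2 and O5 their log2 fold changes were 0.06 and 0.05. The ratio of Col4a1 to Col4a2 counts stayed between 1.29 and 1.68 in all 15 mice. Of the laminin genes, Lama4 was at -0.23, Lamb1 at 0.29 and Lamc1 at 0.35. Col18a1 was at -0.41 (edgeR adjusted p = 0.181) and had its lowest value in O2, at 0.45 times the Adult mean.

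Type VI collagen forms beaded filaments around cells, and its chains are made by 3 of the genes. Col6a2 (chr10:76595762-76623630) and Col6a1 (chr10:76708792-76726168) lie close together on chromosome 10. Col6a2 was at 9.75, 10.1, 10.3, 9.26 and 9.04 CPM in A1 to A5, 15.2, 28.3, 16.3, 16.2 and 21.9 CPM in O1 to O5 and 16.6, 12.8, 26.3, 13.8 and 13.8 CPM in P1 to P5. O2, P3 and O5 were again the highest, but all 10 aged mice lay above the Adult range. Col6a2 rose by 1.02 ± 0.21 (edgeR adjusted p = 0.0187) and remained past the threshold without O2 and O5, at 0.73 ± 0.19 (edgeR adjusted p = 0.0374). Col6a1 was at 15.9, 15.4, 16.0, 13.98 and 15.0 CPM in A1 to A5, 20.0, 42.2, 25.0, 23.4 and 31.3 CPM in O1 to O5 and 22.9, 19.3, 37.2, 18.0 and 19.1 CPM in P1 to P5. All 10 aged mice were above all Adult mice for this chain too. It rose by 0.90 ± 0.22 (edgeR adjusted p = 0.0297), and by 0.59 ± 0.20 without O2 and O5 (edgeR adjusted p = 0.0837). Col6a3, the chain with the longest globular region, was at 1.12 ± 0.33 (edgeR adjusted p = 0.0515). Its levels were 13.6, 42.6, 21.6, 14.9 and 12.4 CPM in O1 to O5, all above the Adult range of 8.24 to 10.5 CPM, and O5 was the lowest of them. The value was 0.80 ± 0.25 without O2 and O5. The fibril-associated collagens Col14a1 (-0.17) and Col16a1 (0.35) did not pass.

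Of the 4 proteoglycan genes 2 rose, Bgn and Vcan. Biglycan (Bgn, chrX:73483602-73495933), a small proteoglycan that binds collagen and growth factors, was at 99.0, 93.0, 103, 81.3 and 102 CPM in A1 to A5, 137, 248, 142, 139 and 129 CPM in O1 to O5 and 147, 145, 245, 135 and 134 CPM in P1 to P5. O2 and P3 stood at almost equal levels above the rest, and the other 8 aged mice lay between 129 and 147 CPM, above the Adult range. Bgn rose by 0.73 ± 0.21 between Old and Adult (edgeR adjusted p = 0.0472), and was at 0.55 ± 0.17 without O2 and O5 (edgeR adjusted p = 0.0706). Lumican (Lum), a keratan sulfate proteoglycan of fibrils, was at 0.83 ± 0.26 (edgeR adjusted p = 0.0630) and 0.55 ± 0.25 without O2 and O5, and all Old mice were above all Adult mice. Decorin (Dcn), which binds collagen fibrils, was at 0.41 (edgeR adjusted p = 0.137), and at 0.20 without O2 and O5.

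Versican (Vcan, chr13:89655312-89742509) had the largest log2 fold change of the 40 genes and the fewest counts. The counts were 5, 2, 2, 1 and 0 in A1 to A5, 3, 76, 6, 13 and 75 in O1 to O5 and 9, 16, 19, 19 and 10 in P1 to P5. O2 and O5 held most of the Old counts, O1 lay within the Adult range, and every PDX mouse was above every Adult mouse. Vcan rose by 4.02 ± 0.86 between Old and Adult (edgeR adjusted p = 0.0209), and was at 2.00 ± 0.66 without O2 and O5 (edgeR adjusted p = 0.0801). With 5 counts or fewer in every Adult mouse, the size of this fold change is poorly determined. Vcan met the low-count filter through aged mice alone, so it could be tested only because it was high there, and its call carries little weight.

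Ecm1 (chr3:95734147-95739569) was the single member that fell between Old and Adult. Its level was 232, 258, 257, 226 and 250.5 CPM in A1 to A5, 169, 164, 152, 147 and 146 CPM in O1 to O5 and 136, 113, 165, 134 and 142 CPM in P1 to P5. The highest of the 10 aged mice was below the lowest Adult mouse, and O2 and O5 differed little from the other Old mice. Ecm1 fell by 0.65 on the log2 scale (SE 0.12, edgeR adjusted p = 0.00969), and the value without O2 and O5 was -0.64 ± 0.12 (edgeR adjusted p = 0.00779). The call was kept in 24 of 25 alternatives. A microRNA gene, Mir7014, overlaps Ecm1 on the same strand.

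The matricellular glycoprotein thrombospondin-1 (Thbs1, chr2:118111876-118127133), an activator of latent TGF-beta, was at 1.21, 1.87, 3.78, 1.54 and 1.49 CPM in A1 to A5, 2.55, 21.6, 2.83, 3.60 and 18.2 CPM in O1 to O5 and 2.96, 4.70, 4.64, 6.61 and 2.00 CPM in P1 to P5. O2 and O5 were well above all others, and the highest Adult mouse, A3, was above 3 of the Old mice. Thbs1 rose by 2.31 ± 0.61 (edgeR adjusted p = 0.0383), and was at 0.63 ± 0.39 without O2 and O5 (edgeR adjusted p = 0.348). Thbs2 (0.85), the microfibril gene Fbn1 (0.98), Sparc (0.43), Fbln5 (0.37), Efemp1 (0.35) and Mfap4 (0.62) had positive log2 fold changes and did not pass. With both mice left out these were -0.02 for Thbs2, 0.04 for Fbn1, 0.11 for Sparc, 0.13 for Fbln5, 0.44 for Efemp1 and -0.10 for Mfap4. Vtn (0.16) and Fn1 (0.18), the 2 hepatocyte glycoproteins, also did not pass.

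None of the 3 crosslinking enzymes passed between Old and Adult. Lox, the founding lysyl oxidase, was at 0.382, 3.60, 0.980, 0.594 and 8.51 CPM in O1 to O5, against 0.366 to 0.562 CPM in Adult mice. O5 and O2 stood far above, and O1 lay within the Adult range. Its log2 fold change was 2.55 ± 0.79 (edgeR adjusted p = 0.0612), and 0.46 ± 0.60 without O2 and O5. Loxl1, which acts on elastic fibres, was at 1.227 ± 0.411 (edgeR adjusted p = 0.0744), with no overlap between Old and Adult mice, and at 0.65 ± 0.41 without O2 and O5. Loxl2 was at 0.34, and at -0.27 without both mice.

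Among the proteases and inhibitors, 1 of 4 rose. Timp2 (chr11:118301069-118355740), an inhibitor of MMPs, was at 18.5, 18.2, 18.4, 18.8 and 20.0 CPM in A1 to A5, 27.9, 58.6, 27.8, 26.7 and 40.6 CPM in O1 to O5 and 31.0, 25.4, 45.2, 24.7 and 22.6 CPM in P1 to P5. All 10 aged mice were above the Adult range, which was narrow. Timp2 rose by 0.95 ± 0.23 (edgeR adjusted p = 0.0287), and was at 0.56 ± 0.18 without O2 and O5 (edgeR adjusted p = 0.0716). Mmp2, the gelatinase of fibroblasts and stellate cells, was at 4.33, 12.2, 6.22, 6.87 and 32.3 CPM in O1 to O5, against 2.89 to 4.79 CPM in Adult mice. Its log2 fold change was 1.59 ± 0.49 (edgeR adjusted p = 0.0601), and 0.51 ± 0.34 without O2 and O5 (edgeR adjusted p = 0.377). Mmp14, which activates the Mmp2 proenzyme, was at 0.51, and Timp3, which is held in the matrix, at 0.37. They were at 0.33 and 0.01 without O2 and O5.

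**Figure D4:**
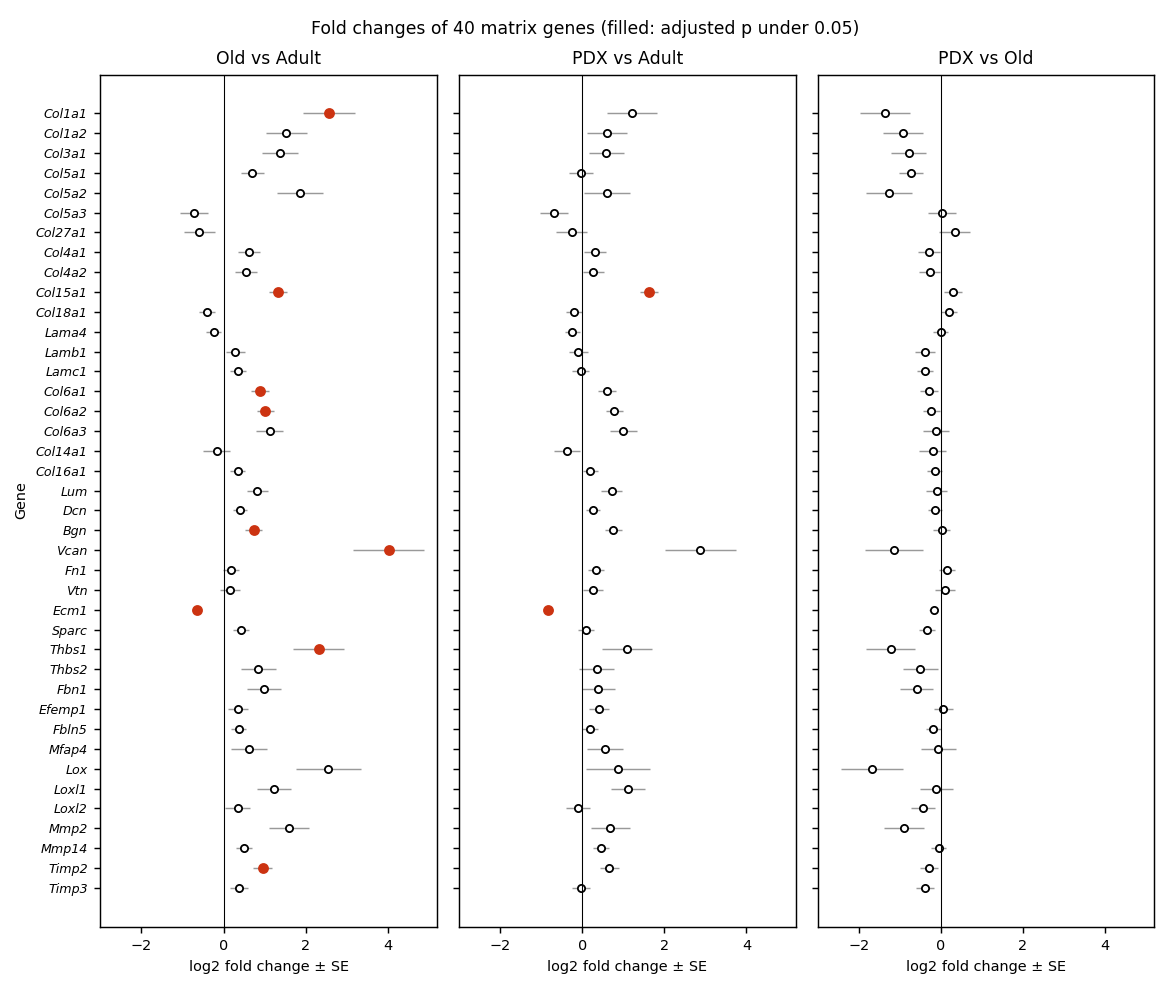
Log2 fold changes (points) with standard errors (bars) of the 40 matrix genes from edgeR for Old against Adult, PDX against Adult and PDX against Old, with filled points for adjusted p under 0.05. Old against Adult has 9 filled points, PDX against Adult has 2, Col15a1 and Ecm1, and PDX against Old has none. Both comparisons with Adult share the Adult mice.

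The mice carried the matrix genes unequally. O2 or O5 was the highest Old mouse for 32 of the 40 members (80%), compared with 55.8% of all genes tested, and they were the highest pair for 26 members (65%), compared with 16.3% of all genes. In the PDX group, P3 was the highest mouse for 33 members (82.5%), compared with 21.5% of all genes. In the Old group the lowest mouse was O1 for 20 members, and in the PDX group it was P5 for 19. These counts describe single mice, and genes that vary together are not independent.

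The marker lists of the cell types differed in how they ranked these mice. The summed CPM of 10 stellate cell markers, none of them a member, was 331 in O2 but 170 in O5, the lowest of all mice, and 265 in P3, the highest of the PDX mice. Adult mice had 253 to 285. O1 and O4, at 195 and 197, and P1, P2, P4 and P5, at 180 to 213, were below the Adult range, as O5 was. O3 was above it at 299. The sum of 9 markers of portal fibroblasts and mesothelium was 33.0 in O2, 24.6 in O5 and 22.6 in P3, against 12.5 to 17.2 in the other aged mice and 9.26 to 16.5 in Adult mice. The sum of 7 myofibroblast and smooth muscle markers was 108 in O5, the highest of all mice, whereas O2 at 67.3 and P3 at 65.1 lay within the range of 35.6 to 95.7 of the other aged mice. The sums of 3 immune cell lists and of the cholangiocyte list were higher in every aged mouse than in every Adult mouse, as Col15a1 was. The sum of 6 cholangiocyte markers was 37.8 to 50.9 in Adult, 51.3 to 96.5 in Old and 53.1 to 104 in PDX mice. It was highest in O5 among Old mice and in P3 among PDX mice, and 0 of the 5 markers tested passed between Old and Adult. The sum of 7 B cell and plasma cell markers was 19.6 to 41.0 in Adult, 168 to 728 in Old and 190 to 675 in PDX mice, and 5 of the 7 passed between Old and Adult, beside 6.78% of all genes. The sum of 8 neutrophil markers was 2.38 to 5.70 in Adult, 10.1 to 235 in Old and 14.4 to 73.0 in PDX mice, and all 7 that were tested passed. The sum of 7 markers of recruited macrophages and monocytes was 15.7 to 20.4 in Adult, 35.2 to 286 in Old and 38.9 to 105 in PDX mice, and 3 of the 7 passed. O2 and O5 were the 2 highest Old mice for neutrophil and recruited macrophage markers, with 235 and 40.9 for the former and 286 and 106 for the latter, and P3 was the highest PDX mouse for the latter. When both mice were left out, 5 B cell, 2 neutrophil and 4 macrophage markers passed between Old and Adult, beside 7.12% of all genes. The part of these cell types in the matrix results was not tested.

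**Figure D5:**
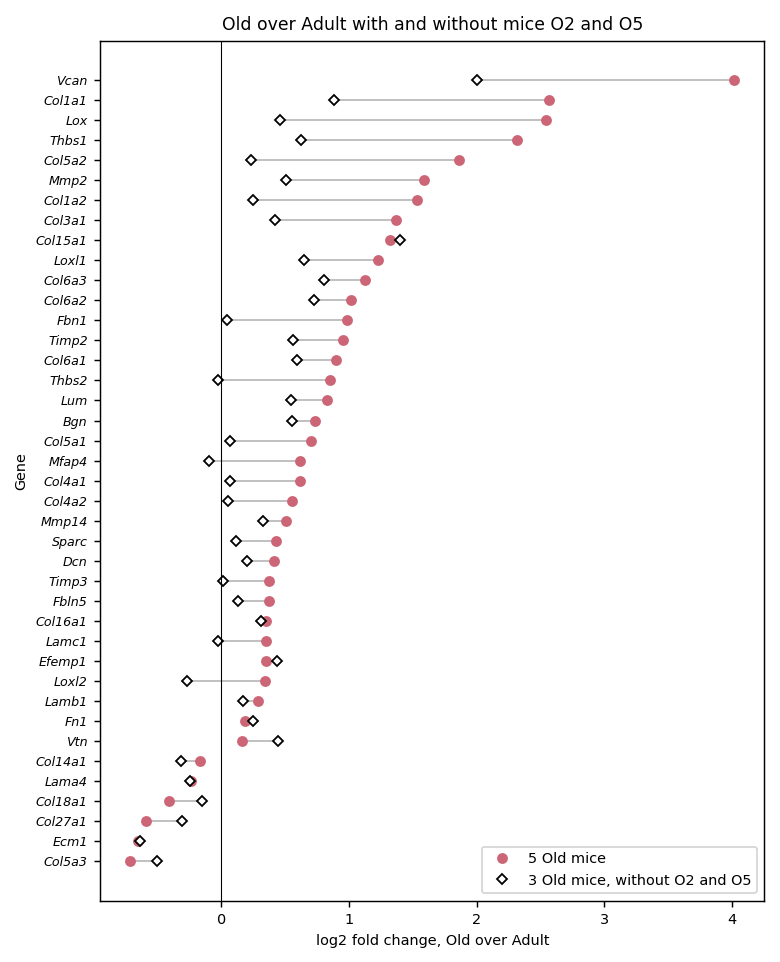
Log2 fold change between Old and Adult for each of the 40 genes, with all 5 Old mice (circles) and with 3 Old mice, without O2 and O5 (diamonds), sorted by the first. Most of the large values shrink toward 0, Col1a1 from 2.56 to 0.88 and Lox from 2.55 to 0.46, whereas Col15a1 and Ecm1 barely move.

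Between PDX and Old, no member passed the threshold of 0.05 in edgeR, or that of 0.25 used in the study, and 0% of all genes did. The smallest adjusted p among the members was 0.793. At an unadjusted p under 0.05 there were 4 members and 5.28% of all genes. DESeq2 also called 0 members. No member separated the groups without overlap, beside 0.342% of all genes (0.145% higher and 0.196% lower). Mean levels were lower in PDX mice for 32 of the 40, and the median log2 fold change was -0.25, beside -0.07 over all genes. The 4 members were Col5a1 (-0.73 ± 0.29), Col5a2 (-1.26 ± 0.55), Col1a1 (-1.35 ± 0.61) and Lox (-1.68 ± 0.76), each with an edgeR adjusted p of 0.793.

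The lower median rested on O2 and O5. Without both mice the median log2 fold change of the members between PDX and Old was 0.13, and the values of Col1a1, Col3a1 and Col5a2 became 0.35, 0.19 and 0.39. Col5a1 stayed negative in all 25 alternatives, at -0.93 to -0.07. The median was -0.08 without O2 alone and -0.45 without P3 alone. With P3 left out as well, a choice made after the values were seen, the median was -0.07. In that setting, with 4 PDX and 3 Old mice, 2.05% of all genes lay lower in every PDX mouse than in every Old mouse, and so did 3 of the 40 members, Lamb1 (-0.45), Ecm1 (-0.24) and Sparc (-0.21), the last a collagen-binding glycoprotein, and none passed the edgeR test (adjusted p = 0.546 to 0.614). For Col15a1 the difference between PDX and Old was 0.30 ± 0.22, and for Ecm1 it was -0.17 ± 0.11, with overlapping groups. Bgn was at 0.02 ± 0.21.

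Between PDX and Adult, 2 members passed, Col15a1 higher and Ecm1 lower. This was 5% of the members, beside 2.66% of all genes (1.76% higher and 0.898% lower). The log2 fold change was 1.62 ± 0.22 for Col15a1 (edgeR adjusted p = 0.00171) and -0.83 ± 0.12 for Ecm1 (edgeR adjusted p = 0.00174), and both calls were kept in all 25 alternatives. The median over the members was 0.37, beside -0.01 over all genes. The groups did not overlap for 10 members, 9 of them higher in PDX (Col1a1, Col5a2, Col15a1, Col6a1, Col6a2, Col6a3, Bgn, Vcan and Timp2), and 19.9% of all genes separated these groups (10.5% higher and 9.34% lower). Near the threshold were Col6a2 (0.78 ± 0.21, edgeR adjusted p = 0.0595), Bgn (0.75 ± 0.21, edgeR adjusted p = 0.0664) and Vcan (2.88 ± 0.86, edgeR adjusted p = 0.0864). Without O2 and O5, whose spread enters the shared estimate, 13 of the 40 passed between PDX and Adult, beside 24.6% of all genes. The count was 9 without O2 alone (11.1% of all genes) and 5 without O5 alone (10.9% of all genes). The median over the members was 0.15 without P3.

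Promoter sequences are shown for 4 members with contrasting patterns, namely Col3a1 and Vcan, which were high in O2 and O5, and Col15a1 and Ecm1, which shifted in all aged mice. Each is the 250 bases before the RefSeq start site in build GRCm38.p6, given 5′ to 3′ on the strand of the gene. Capitals mark matches on either strand to the CCAAT box (CCAAT), the TATA box (TATAAA), the GC box (GGGCGG), the SMAD box (CAGAC, the core bound by SMAD proteins downstream of TGF-beta) or the AP-1 site (TGANTCA). No capitals overlap 2 motifs.
Col3a1, chr1:45311288-45311537, plus strand: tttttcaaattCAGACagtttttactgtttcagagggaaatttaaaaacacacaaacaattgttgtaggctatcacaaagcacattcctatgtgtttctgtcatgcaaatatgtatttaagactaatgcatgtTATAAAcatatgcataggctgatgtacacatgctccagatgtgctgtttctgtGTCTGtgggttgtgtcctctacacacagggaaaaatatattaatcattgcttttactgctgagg
Vcan, chr13:89742513-89742762, minus strand: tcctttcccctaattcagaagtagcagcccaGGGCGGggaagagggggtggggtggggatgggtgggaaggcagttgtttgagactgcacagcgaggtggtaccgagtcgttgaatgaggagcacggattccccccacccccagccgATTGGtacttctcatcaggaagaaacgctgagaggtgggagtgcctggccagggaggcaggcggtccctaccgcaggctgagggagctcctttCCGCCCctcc
Col15a1, chr4:47207762-47208011, plus strand: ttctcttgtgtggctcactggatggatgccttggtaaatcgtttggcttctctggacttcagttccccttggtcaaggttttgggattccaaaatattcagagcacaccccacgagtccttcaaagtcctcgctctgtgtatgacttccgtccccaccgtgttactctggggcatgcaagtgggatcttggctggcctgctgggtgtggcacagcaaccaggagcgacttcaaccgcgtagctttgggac
Ecm1, chr3:95739570-95739819, minus strand: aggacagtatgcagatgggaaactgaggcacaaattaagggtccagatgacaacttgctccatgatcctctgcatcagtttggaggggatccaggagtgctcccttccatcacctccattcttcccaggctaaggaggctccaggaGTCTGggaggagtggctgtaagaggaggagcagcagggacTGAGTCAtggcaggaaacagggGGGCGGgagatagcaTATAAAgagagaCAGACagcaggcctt

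The Col3a1 window was poor in GC (35.2%) and had no CG dinucleotide, and it held a TATAAA 117 bases upstream and 2 SMAD boxes. The Vcan window had 62.4% GC, 10 CG dinucleotides, 2 GC boxes and a CCAAT box on the opposite strand 103 bases upstream. The Col15a1 window held none of the 5 motifs. The Ecm1 window held a TATAAA 27 bases upstream, a GC box, 2 SMAD boxes and an AP-1 site 64 bases upstream. Of the 40 members, 26 had a window in the RefSeq table. A GC box was found in 18 of these 26 (69.2%), beside 32.7% of 32851 windows of the same length, and a CCAAT box in 12 (46.2%), beside 33.8%. SMAD boxes were found in 14 (53.8%), beside 42.2%, TATA boxes in 4 (15.4%), beside 12.4%, and AP-1 sites in 3 (11.5%), beside 6.75%. A match describes letters and not a bound site.

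Further matrix genes were read from 6 lists. Of 17 other collagens tested, 3 rose and 1 fell between Old and Adult, beside 4.71% and 2.07% of all genes. The risers included Col4a3 and Col4a4, which encode chains of the type IV network known from the glomerulus. Col4a3 was at 0.281, 0.352, 0.0912, 0.220 and 0.115 CPM in A1 to A5, 2.17, 6.82, 0.264, 2.08 and 0.830 CPM in O1 to O5 and 15.2, 16.2, 9.18, 5.18 and 0.550 CPM in P1 to P5. Every PDX mouse was above every Adult mouse, and O3 lay within the Adult range. Col4a3 had 10 counts or fewer in every Adult mouse and met the low-count filter through aged mice alone, so the size of its fold changes is poorly determined. The log2 fold change was 3.49 ± 0.90 between Old and Adult (edgeR adjusted p = 0.0348) and 5.40 ± 0.94 between PDX and Adult (edgeR adjusted p = 0.00743), whereas it was 1.92 ± 0.77 between PDX and Old (edgeR adjusted p = 0.793). Col4a4 showed 2.07 and 3.67 in the comparisons with Adult (edgeR adjusted p = 0.0346 and 0.00265). These genes share a promoter region, and O5 ranked the fourth among the 5 Old mice in both. Their partner Col4a5 fell by 0.80 between Old and Adult (edgeR adjusted p = 0.0489). The fourth called collagen was Col8a1, at 1.30. Of these, Col4a5 alone passed between Old and Adult without O2 and O5, where Col4a3, Col4a4 and Col8a1 were at 2.79, 1.91 and 1.11.

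Among other glycoproteins and proteoglycans, 7 of 45 rose between Old and Adult (4.71% of all genes) and 5 of 45 between PDX and Adult (1.76%), and none fell. The first count was 6 of 46, with 1 lower, without O2 and O5, where 7.12% of all genes passed. Nid1, which bridges laminin and type IV collagen, was at 20.4, 19.1, 20.2, 18.3 and 17.2 CPM in A1 to A5, 87.2, 75.6, 30.7, 62.7 and 47.8 CPM in O1 to O5 and 63.8, 36.3, 84.0, 76.0 and 24.5 CPM in P1 to P5, above the Adult range in all 10 aged mice. It rose by 1.67 between Old and Adult (edgeR adjusted p = 0.0141) and by 1.58 between PDX and Adult (edgeR adjusted p = 0.0161). Smoc2, a calcium-binding matricellular protein, rose by 1.49 and 1.61 in the same comparisons (edgeR adjusted p = 0.00509 and 0.00182). Both genes also passed between Old and Adult without O2 and O5, at 1.67 and 1.52. The list of other proteases and inhibitors had 8 of 21 genes higher in Old than in Adult (4.71% of all genes), and 2 without O2 and O5. It had 1 gene higher in PDX than in Adult (1.76% of all genes). The gene called in both comparisons with all mice was Mmp12, the macrophage elastase, with log2 fold changes of 3.69 and 3.81 (edgeR adjusted p = 0.00937 and 0.00640). Mmp7, an epithelial protease, was at 0.255, 0.995, 0.151, 1.49 and 59.0 CPM in O1 to O5, and O5 was by far the highest. Adult mice had 0 to 0.146 CPM, from 4 counts or fewer each, so Mmp7 met the low-count filter through aged mice alone. It passed with all mice (edgeR adjusted p = 0.0267), and its log2 fold change was 3.14 without O2 and O5 (edgeR adjusted p = 0.0615). In collagen synthesis and processing 2 of 20 genes passed between Old and Adult, beside 6.78% of all genes. They were P3h1 at 0.70 and Adamts2 at 1.07, and neither passed without O2 and O5 (0.71 and 0.61). In that fit 3 others of the 20 passed, beside 7.12% of all genes. Between PDX and Adult 0 of the 20 passed with all mice, and 11 without O2 and O5 (24.6% of all genes). In TGF-beta and PDGF signalling 1 of 20 passed, a share close to the 4.71% of all genes that were higher. That gene was Tgfb3, at 2.85, 4.21, 1.92, 3.60 and 8.12 CPM in O1 to O5, with 1.34 for all mice, and 0.79 without O2 and O5, where it did not pass. In matrix receptors 2 of 19 passed, beside 6.78% of all genes, and both were highest in O5. Itga2 was at 0.255, 0.936, 0.377, 0.334 and 11.7 CPM in O1 to O5, with 4.85 on the log2 scale and 1.81 without O2 and O5, and Ddr1 was at 3.69, 4.89, 4.15, 5.76 and 33.5 CPM, with 1.94 and 0.75. Neither passed without both mice. Without O5 alone Itga2 still passed (2.37, edgeR adjusted p = 0.0418), and Ddr1 did not (0.76, edgeR adjusted p = 0.0591). Itga2 had 5 counts or fewer in every Adult mouse and met the low-count filter through aged mice alone, so its fold changes are poorly determined. No gene of the 6 lists passed between PDX and Old.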

How the data were processed

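Liver of 15 female mice was analysed as 1 library per mouse, with no pooling of animals. The reads had been aligned to mm10 with STAR 2.6.0c by the authors, and the deposited counts are whole read pairs per Ensembl 100 gene from featureCounts (Subread 1.6.2), made by strand from uniquely aligned proper pairs of non-mitochondrial genes and not normalized. The deposited table of transformed values was not used here. Symbols and positions came from GENCODE M21 on GRCm38, the assembly of mm10, for 55190 of 55450 gene IDs, and promoters from RefSeq on GRCm38.p6. 0 columns were left without a sample.

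Counts were fitted with the quasi-likelihood test of edgeR 4.0.16 in R 4.3.3 with limma 3.58.1, with filterByExpr (minimum count 10, minimum total 15) and TMM factors (0.884 to 1.33), in 1 model of all 15 mice with a common spread per gene. All tests were two-sided, and p-values were adjusted with Benjamini-Hochberg over the 15808 genes. Precision is limited by 5 mice per group. Tables and plots used Python 3.11.15, numpy 2.4.6, scipy 1.17.1, pandas 2.3.3 and matplotlib 3.10.9. On simulated counts of 15627 genes, 200 of them changed by 2 on the log2 scale, edgeR called 162 genes between Old and Adult, of which 156 were changed ones, and called 0 between PDX and Adult, where none was changed.

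The members, the gene lists and the marker lists were chosen with earlier results of these data known. Values were given in full for every member past an adjusted p of 0.05 in any comparison, for Col1a1, Col1a2 and Col3a1 in any case, and for the 3 members with the smallest p-values in PDX against Old. Other members were given in brief. From each other list, at most 5 genes past the threshold per comparison could be named. Gavage lasted 9 weeks by the paper's methods and 8 weeks by the series text. Same-numbered mice are different animals, and their deviations correlated on average by -0.17 between Old and Adult, 0.09 between PDX and Old and 0.03 between PDX and Adult, so the numbers were not taken as pairs. The alternatives were DESeq2 1.42.0, other scalings and filters, fits of 2 groups, a replicate block, and fits without each mouse, without O2 and O5, and without O2, O5 and P3, the last chosen after the values were seen. Euthanasia batches were not analysed here, as the sources used do not give them per mouse.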

Additional observations from a re-analysis of the deposited data

Results flagged for a closer look

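In 25 of 120 groups of 5 mice (40 genes in 3 groups), 1 mouse lay farther from the others than Dixon's 95% critical value allows, where chance gives about 6. P3 was that mouse in 16 of them, always as the highest PDX mouse. Its levels were 64.0 CPM for Col1a1, 77.4 for Col1a2, 154 for Col3a1, 20.3 for Lamb1, 37.2 for Col6a1, 26.3 for Col6a2, 9.37 for Col16a1 and 30.3 for Lum. They were 306 CPM for Dcn, 245 for Bgn, 125 for Sparc, 7.95 for Thbs2, 9.87 for Fbn1, 5.36 for Mfap4, 5.77 for Loxl2 and 13.3 for Mmp2.

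Among Old mice, O2 stood apart as the highest for Lum (30.6 CPM) and Bgn (248 CPM), and O5 as the highest for Mmp2 (32.3 CPM) and Timp3 (77.8 CPM). Among Adult mice, A2 was the lowest for Lamc1 (16.2 CPM) and Thbs2 (1.83 CPM), A3 the highest for Thbs1 (3.78 CPM), A4 the highest for Col27a1 (17.1 CPM) and A5 the lowest for Col4a2 (31.9 CPM). Genes of the matrix vary together, so the flags are not independent of each other.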

How the results depend on the processing

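Between Old and Adult, 9 members passed in the edgeR test. The count was 17 with the Wald test of DESeq2 (14.1% of all genes), 2 with only the 2 groups in the fit (0.698%) and 3 without O2 and O5 (7.12%). It was 10 without O2, O5 and P3 (6.93%). With 1 mouse left out it was 2 to 18. It was 5 without O2 (4.32% of all genes), 18 without O1 (9.85%) and 16 without O3 (13.5%) or O4 (9.92%). It was 2 to 4 without an Adult mouse (0.970% to 1.51%). Other scalings and filters gave 8 to 10 (2.26% to 6.99%). Members without overlap between Old and Adult numbered 10 to 16 with 1 mouse left out. The share of all genes ranged from 3.57% higher and 4.42% lower (without P2) to 5.81% higher and 7.43% lower (without O3). Between PDX and Adult, 2 passed. The count was 6 with DESeq2 (7.70% of all genes), 15 with only the 2 groups (29.6%), 13 without O2 and O5 (24.6%) and 11 without O2, O5 and P3 (20.4%). It was 2 to 9 with 1 mouse left out, with 9 without O2 (11.1% of all genes) and 5 without O5 (10.9%). Between PDX and Old, 0 passed in every setting, and the median was 0.13 without O2 and O5. Non-overlapping members numbered 3 without O2, O5 and P3 (3.16% of all genes higher and 2.05% lower). They numbered 0 to 2 with 1 mouse left out (2 without P3, beside 0.251% of all genes higher and 0.433% lower). Named members also turned direction between PDX and Old without O2 and O5, with 0.35 for Col1a1, 0.37 for Col1a2, 0.19 for Col3a1, 0.39 for Col5a2, 0.041 for Col6a1, 0.077 for Col6a2, 0.89 for Vcan, 0.49 for Thbs1 and 0.12 for Timp2, and without O2, O5 and P3 with 0.18 for Col5a2, 0.83 for Vcan and 0.44 for Thbs1. Bgn was at -0.10 with library totals and -0.18 to 0.23 with 1 mouse left out. Col5a1 between PDX and Adult was at 0.015 with upper quartile factors, 0.000432 with a filter of 1 CPM in 5 mice, and up to 0.036 with 1 mouse left out. The cause of these changes was not tested.

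With the replicate number as a block, 3 members passed between Old and Adult (1.499% of all genes), 0 between PDX and Old and 2 between PDX and Adult (2.00%). The numbers do not mark shared animals.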

Other observations

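The chains of type I collagen did not keep their proportion. The ratio of Col1a1 to Col1a2 counts was 0.392 to 0.502 in Adult mice, 0.649 to 1.11 in Old mice and 0.511 to 0.827 in PDX mice, so that every aged mouse lay above every Adult mouse, also those with type I collagen levels near the Adult range. The margin between PDX and Adult was small, with 0.511 in P2 (351 and 687 counts) and 0.502 in A5 (457 and 911 counts). The ratio of Col1a1 to Col3a1 was 0.203 to 0.257 in Adult, 0.310 to 0.795 in Old and 0.287 to 0.416 in PDX mice, again without overlap between Adult and aged mice. The ratio of Col6a1 to Col6a2 counts was 1.51 to 1.66 in Adult mice, 1.31 to 1.54 in Old mice and 1.30 to 1.51 in PDX mice. These ratios were looked at after the levels were seen, and no test was run on them.

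The labels give 2 measures of frailty, and the change in body weight. The frailty index was 0.56 in O5, the highest of the Old mice, and 0.11 in O2, the lowest. The positive frailty criteria numbered 4 in O5 and 3 in O2, against 1 to 4 in the other Old mice. The paper counts the frailty index and body weight loss among these criteria, so the 2 measures are not separate. The body weight change was 3.07% in O2 and -3.55% in O5, against -0.8% to 0% in the other Old mice. The paper places O2 and O5 at the extreme of frailty, with the lowest treadmill distance and wheel activity between them. P3 had an index of 0.22, within the PDX range of 0.06 to 0.26, and 2 positive criteria, within the PDX range of 0 to 4.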
